A study of Mus musculus with 2 samples.

Results

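The proteasome subunit genes were taken as the protein-coding genes whose symbol starts with Psma, Psmb, Psmc, Psmd, Psme, Psmf or Psmg followed by a number, in the GENCODE M21 annotation of the mouse genome build mm10 (GRCm38). The rule found 50 genes of 21853 protein-coding genes, with 108 of 54361 annotated transcription start sites (TSSs). It used symbols only and no measured value. One of the 50, Psmc3ip, carries the prefix but encodes a recombination cofactor of meiosis and not a part of the proteasome. It was kept because the rule names it, and it is included in the counts. Without it, 26 of 49 genes (53.1%) had an EP300 promoter peak and 28 an assigned peak, as defined next.

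EP300 is a coactivator that acetylates histones and is recruited to enhancers and promoters by transcription factors. It had been immunoprecipitated from heart tissue of mice of the strain labelled B6NCrl at postnatal day 0, and the bound DNA sequenced (ChIP-seq). All samples belonged to 1 group of 2 replicates with no treatment, no allele and no other tissue or age, so no conditions were compared and no test between groups could be made. The labels give both replicates the same biosample and donor identifier, and the spread between them may therefore be technical. The labels name heart tissue and no cell type, so the cell type behind a peak cannot be told. Whether a weak peak reflects few cells or little EP300 per cell cannot be told apart either. As a check of the tissue label, the optimal list assigned 27 peaks to Myh6 and 21 to Tnnt2, both genes of the cardiac sarcomere, and 15 to Gata4, a cardiac transcription factor, against 0 to the liver genes Alb and Apoa1 and 0 to the neuronal gene Snap25, while the neuronal gene Rbfox3 had 2.

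The authors deposited 5 lists of peaks. The pooled list and the lists of replicate 1 and replicate 2 each hold 300000 calls of widely varying strength. The optimal list of 17372 peaks and the conservative list of 15628 peaks were filtered by irreproducible discovery rate (IDR), a measure of how reproducible the ranks of calls are. A peak of the optimal list need not be strong in both replicates, as the ranks given below show. Each peak has the authors' signal value, used here only to rank peaks within a list (rank 1 is the strongest), and a summit, the base of highest signal. A promoter peak was a peak whose summit lay within 1 kb of any TSS of the gene. Because one peak can lie within 1 kb of 2 genes, each peak was in addition assigned to the single gene with the nearest TSS within 100 kb. Read depth is not recorded in the lists and is unknown here, so the absence of a call is not evidence of absence of EP300.

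The proteasome is the protease that degrades proteins tagged with ubiquitin. Its 20S core is a barrel of stacked rings, with outer alpha rings that gate entry and inner beta rings that carry the cutting sites, and its 19S regulatory particle, made of an ATPase ring and non-ATPase subunits, recognises, unfolds and feeds in the substrate. Assembly chaperones join the parts, and alternative caps and replacement beta subunits, the latter induced by interferon or limited to thymus, change its output. In heart, where contractile proteins turn over continuously, the system is known for quality control and for the breakdown of sarcomere proteins.

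EP300 peaks lay at the promoters of 27 of the 50 proteasome genes (54.0%), against 21.3% of all protein-coding genes. The strongest lay at Psmd5, a chaperone of the regulatory particle base, followed by Psmg2, a chaperone of the alpha ring, Psmb2, a core beta subunit, Psmd12, a lid subunit, and Psmd1, the large scaffold of the base. The optimal, pooled and replicate lists held no call at the promoters of the immunoproteasome genes Psmb8 and Psmb9, the thymus gene Psmb11, the ATPase gene Psmc5, the ubiquitin-docking subunit gene Psmd2 and Psme2b.

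The promoter stretches that follow show where the strongest peaks sat. They are RefSeq promoter windows (250 bases before to 50 after the RefSeq start, GRCm38.p6), cut to the longest run of up to 180 bases upstream of the start that lies in no annotated exon, written 5′ to 3′ in the direction of transcription. Capitals mark matches, on either strand, to the consensus motifs described later. These 5 are genes with a strong promoter peak whose summit lies inside the printed stretch and that ranked within the first 17372 calls of both replicates.
Psmd5, chr2:34870963-34871107, minus strand: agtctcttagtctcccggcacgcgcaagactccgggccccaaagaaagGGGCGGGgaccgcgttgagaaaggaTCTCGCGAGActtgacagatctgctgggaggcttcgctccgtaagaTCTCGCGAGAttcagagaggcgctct
Psmd12, chr11:107479304-107479483, plus strand: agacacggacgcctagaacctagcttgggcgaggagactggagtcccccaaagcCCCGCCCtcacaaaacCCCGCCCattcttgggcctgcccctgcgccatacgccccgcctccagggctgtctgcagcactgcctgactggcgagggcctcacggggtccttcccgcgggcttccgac
Psmb3, chr11:97703219-97703398, plus strand: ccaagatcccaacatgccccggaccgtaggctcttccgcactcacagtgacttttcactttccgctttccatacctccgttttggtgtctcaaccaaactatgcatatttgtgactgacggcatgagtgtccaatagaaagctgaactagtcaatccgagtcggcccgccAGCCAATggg
Psmc1, chr12:100109974-100110153, plus strand: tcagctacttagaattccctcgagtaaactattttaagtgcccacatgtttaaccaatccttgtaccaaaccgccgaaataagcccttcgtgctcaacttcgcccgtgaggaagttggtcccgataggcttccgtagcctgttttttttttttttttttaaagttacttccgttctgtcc
Psma1, chr7:114276119-114276298, minus strand: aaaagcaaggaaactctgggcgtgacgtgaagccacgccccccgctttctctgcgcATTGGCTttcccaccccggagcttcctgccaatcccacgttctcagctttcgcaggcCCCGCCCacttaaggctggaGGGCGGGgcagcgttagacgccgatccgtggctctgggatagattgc

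The Psmd5 stretch covers the whole of the Psmd5 peak, which spanned 142 bp at chr2:34870964-34871105, whereas the other proteasome peaks were 496 bp wide. It holds the 10-base palindrome TCTCGCGAGA at 2 places, starting at positions -72 and -26 from the RefSeq start. This palindrome was searched for after the Psmd5 sequence had been seen. Psmd5 was the only 1 of the 42 proteasome genes with a RefSeq window that held it (2.38%), against 127 of 16515 genes (0.769%), and a pair of matches in 1 window occurred in 9 of the 16515 genes (0.0545%). Of the 127 genes with the palindrome, 109 (85.8%) had an EP300 promoter peak. In the 200 bp around promoter summits of the optimal list, the palindrome occurred at 57 of 322 summits ranked within the first 1000 (17.7%) and at 61 of the 5488 ranked lower (1.11%). These shares describe the lists and were not tested. The printed Psmc1 stretch holds no match, but its promoter window has an ETS match at -28, past the end of that stretch.

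Across the optimal list, 37 peaks were assigned to 29 of the 50 proteasome genes (58.0%), against 31.9% of all protein-coding genes. A proteasome gene had 0.740 assigned peaks on average, close to the 0.712 of all genes, but the peaks were spread differently. Of the 29 genes, 23 had 1 peak, 4 had 2 and 2 had 3, so that 20.7% of proteasome genes with a peak had more than 1, whereas 50.4% of all genes with a peak did. Of the 37 peaks, 28 (75.7%) lay within 1 kb of a TSS, against 37.3% of all assigned peaks. Counting promoter peaks whose nearest TSS was a neighbour's, 31 of the 50 genes had a peak of either kind, and 33 peaks lay within 1 kb of a proteasome TSS, 5 of them assigned to another gene.

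**Figure D1:**
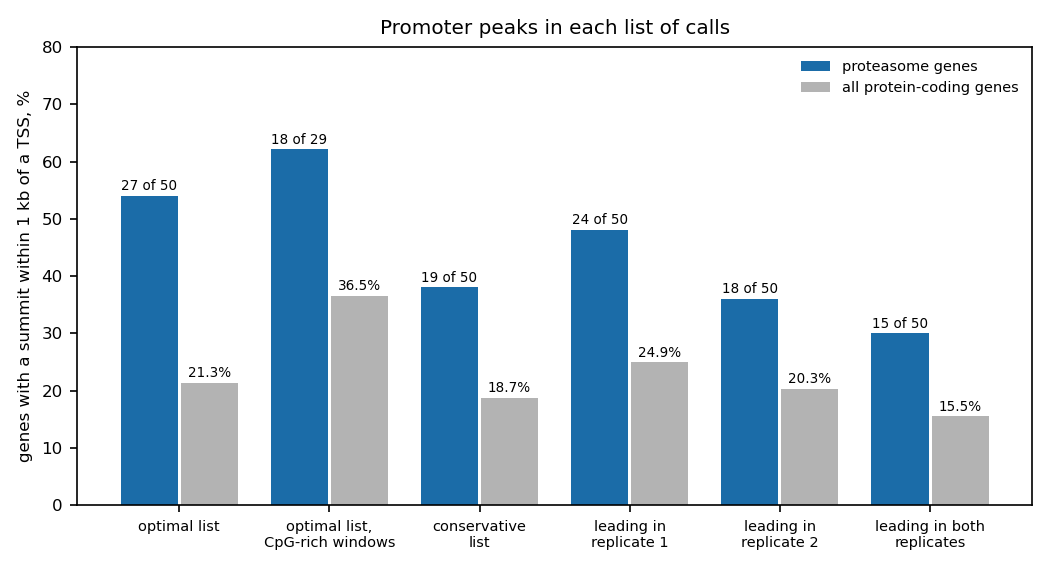
Percentage of genes with a peak summit within 1 kb of a TSS, for the 50 proteasome genes (blue, with the number of genes written above) and all protein-coding genes (grey), in the optimal list, in the optimal list for genes with a CpG-rich promoter window, in the conservative list, and among the first 17372 calls of each replicate and of both. The proteasome share is above the share of all genes in each of the 6 pairs of bars, and falls from 54.0% in the optimal list to 30.0% in both replicates.

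The promoter excess was seen in each list, at different sizes. The conservative list held promoter peaks at 19 of the 50 genes (38.0%), against 18.7% of all genes. Replicates were compared by taking the first 17372 calls of each list, as many as the optimal list holds, here called leading calls. Leading calls of replicate 1 lay at 24 proteasome promoters (48.0%, against 24.9% of all genes), those of replicate 2 at 18 (36.0%, against 20.3%), and both replicates had one at 15 (30.0%, against 15.5%). The spread between the replicates, 24 against 18 genes, was smaller than the distance of either share from its background. That spread may be technical and does not measure the uncertainty of a share over 50 genes.

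Promoter base composition moved with these counts. A window was called CpG-rich where its GC content was at least 50% and its ratio of observed to expected CpG at least 0.6. Of the 42 proteasome genes with a RefSeq window, 29 (69.0%) had a CpG-rich one, against 50.1% of the 16515 genes with a window. Among CpG-rich promoters alone, 18 of the 29 proteasome genes (62.1%) had a promoter peak, against 36.5% of all genes. The other 13 had a promoter peak in 5 cases, where 8.79% of all genes without a CpG-rich window did. The proteasome share was above that of all genes in both classes, but the second class is small and depends on the cutoffs. Psmc1, for example, had a CpG ratio of 0.966 and fell outside by its GC content of 47.0%. The 8 genes without a window are in neither class. How far composition contributes was not tested.

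The strength of the proteasome promoter peaks had no clear direction against that of other promoter peaks. The strongest promoter peak of each of the 27 genes had a median signal of 30.7, with quartiles of 24.0 and 51.0 and a range of 11.8 to 169.7, against a median of 36.6 and quartiles of 27.3 and 50.6 for all genes with a promoter peak. The median over all peaks of the optimal list was 30.6. Within the optimal list the median percentile was 50.2 for the proteasome genes and 63.6 for all genes with a promoter peak. In the first 1000 ranks lay 4 of the 27 (14.8%, against 8.35% of all genes with a promoter peak) and in the first 5000 lay 12 (44.4%, against 40.5%). A −log10 q-value of at least 2 was reached by 16 of the 27 (59.3%), against 72.7% for all genes with a promoter peak. Without Psmc3ip the median signal was 31.1 and the lowest 16.1. The order of the median percentiles depended on the list: in the conservative list it was 74.5 for the proteasome genes and 64.4 for all genes, among leading calls of replicate 1 it was 60.1 against 59.8, and among those of replicate 2 it was 73.7 against 60.9.

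Summits sat close to the TSS and mostly before it. The median distance was 94.0 bp for the proteasome genes and 120.0 bp for all genes with a promoter peak, 14 of the 27 summits (51.9%, against 44.2%) lay within 100 bp, and 25 (92.6%, against 79.4%) lay within 300 bp. Upstream of the TSS lay 19 summits and downstream 8 (29.6%, against 35.3%).

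**Figure D2:**
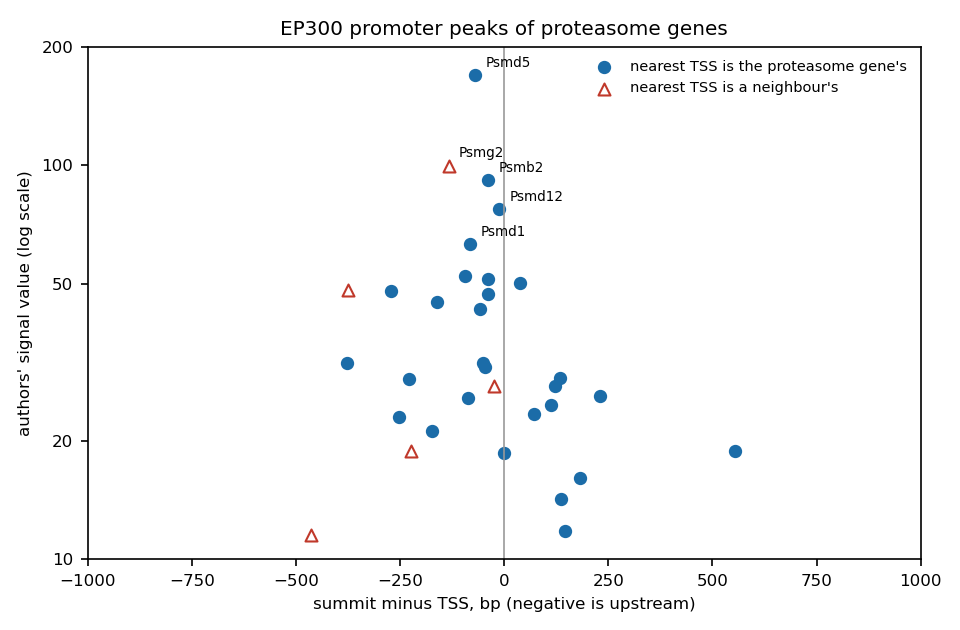
Position of each of the 33 promoter summits relative to the nearest TSS of the proteasome gene (horizontal axis, bp, negative is upstream) and the authors' signal value in the optimal list (vertical axis, log scale). Filled circles are peaks assigned to the proteasome gene and open triangles the 5 peaks whose nearest TSS belongs to a neighbour; the 5 strongest, from Psmd5 at 169.7 to Psmd1 at 63.0, are named and lie upstream of the TSS.

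For promoter peaks, a replicate rank is that of the strongest call within 1 kb of a TSS of the gene in that replicate's full list, whose summit need not be that of the optimal peak, and positions count from the TSS.

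The alpha ring of the core has 7 constitutive genes, of which 4 had a promoter peak. Psma6 had the strongest, with a signal of 50.4 (rank 3070) and a summit 37 bp past 1 of its 2 TSSs (position 37). That TSS is internal: the summit lay at chr12:55398812, whereas the gene starts at chr12:55384222. The replicates differed widely for Psma6: rank 1147 in replicate 1 and rank 62517 in replicate 2. Psma1 ranked 4040 in the optimal list (signal 45.0), 3947 in replicate 1 and 5127 in replicate 2, so both replicates placed it alike, and a weaker second peak (31.4) lay farther upstream, at -378. Psma3 ranked 8644 (30.7), with replicate ranks of 11359 and 17904. Psma7 was weak, at rank 14454 (18.8) and replicate ranks of 18922 and 26611, and the peak stood nearer to the TSS of Ss18l1, a divergent neighbour. Psma2, Psma4 and Psma5 had no promoter peak in the optimal list, and neither did Psma8, the testis form of an alpha subunit.

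The beta ring has 3 genes for cutting subunits, of which 2 had a promoter peak in the optimal list. Another 4 genes encode subunits without a cutting site, of which 3 had one.
Among the cutting subunits, Psmb5 (chymotrypsin-like) had an optimal peak at rank 15088 (16.1, position 182) and, in the conservative list, one upstream of the TSS at rank 10608 (25.6, position -144), and Psmb6 (caspase-like) had an optimal peak at rank 12608 (23.4, position 72). Psmb5 ranked 18537 in replicate 1 and 9093 in replicate 2. Psmb6 ranked 9704 in replicate 1 and had no call in replicate 2. Psmb7 (trypsin-like) had none in the optimal list but one in the conservative list, at rank 11305 (24.0). No cutting subunit gene had a leading call in both replicates.
The structural beta genes Psmb2, Psmb3 and Psmb1 had signals of 91.9, 52.5 and 43.3 and each had leading calls in both replicates. Psmb2 ranked 517 in the optimal list, 339 in replicate 1 and 1789 in replicate 2. Psmb3 ranked 2774, 1993 and 17363, the last just inside the limit of 17372. Psmb1 ranked 4409, 2152 and 9781. The fourth structural gene, Psmb4, had no promoter peak in the optimal list. Its pooled rank of 32646 was weaker than those of all 3 cutting genes, Psmb5 (12903), Psmb7 (14346) and Psmb6 (15004). With so few genes in each role the difference in signal between the roles is a description only.

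Of the 4 replacement beta subunit genes, 1 had a promoter peak, where 21.3% of all genes did. Psmb8 and Psmb9, which replace cutting subunits in the immunoproteasome, and Psmb11, the thymoproteasome subunit, had no call within 1 kb in the pooled list or in either replicate list. Psmb10, the third immunoproteasome subunit, had a weak peak inside the gene at position 555, at rank 14468 (18.8), with replicate ranks of 26725 and 22738.

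Among the 6 ATPase genes of the regulatory particle, which form the ring that unfolds substrates, 4 had a promoter peak, with signals of 25.6 to 51.6. Psmc1 ranked 2900 in the optimal list (51.6), 4399 in replicate 1 and 2237 in replicate 2, and its summit lay at -39. Psmc6 ranked 9729 (28.6), with replicate ranks of 11361 and 11947, close together. Psmc2 ranked 10353 (27.5), had a rank of 9748 in replicate 1 and no call in replicate 2 within 1 kb of its GENCODE TSS. Psmc4 went the other way, with rank 11420 (25.6) in the optimal list, 154158 in replicate 1 and 4059 in replicate 2. Psmc3 had no promoter peak in the optimal list, and Psmc5 none in the optimal, pooled or replicate lists.

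Of the 11 non-ATPase genes, 7 had a promoter peak in the optimal list, with signals of 22.9 to 77.5 and a median of 31.5, and 6 had leading calls in both replicates. Psmd12 ranked 939 (77.5), with replicate ranks of 929 and 1059, and Psmd1 ranked 1731 (63.0), with 1830 and 2613. Psmd3, a lid subunit, ranked 3611 (47.2), with 2455 and 3867. Psmd8, another lid subunit, ranked 8311 (31.5), with 5721 and 15290, and Psmd11, a lid subunit that joins the lid to the core, ranked 11148 (26.0), with 9008 and 9840. In these 5 genes both replicates had a leading call. Psmd13 ranked 9618 (28.8) and Psmd4, a ubiquitin receptor, 12891 (22.9), and both led in replicate 1 alone, with replicate 2 ranks of 49512 and 51232.
Psmd6, a lid subunit, had no promoter peak in the optimal list, yet leading calls in both replicates, at ranks 9677 and 7713, a pooled rank of 7608 and a conservative peak at rank 7088 (33.8). Psmd7, Psmd14, the deubiquitinase of the lid, and Psmd2 had no promoter peak in the optimal list, and Psmd2 no call in any of the pooled and replicate lists.

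Of the 7 assembly chaperone genes, 3 had a promoter peak, among them the 2 with the highest signals of the 27. Psmd5 ranked 60 in the optimal list (169.7), 54 in replicate 1 and 81 in replicate 2, and had a second promoter peak at -271 with a signal of 47.9 (rank 3463). Psmg2 ranked 379 (99.8), 217 in replicate 1 and 3345 in replicate 2, with its summit at -134. That summit lay nearer to the TSS of Cep76, a centrosomal protein gene on the opposite strand, to which the peak was assigned. Psmg1, the partner of Psmg2 in the alpha ring chaperone, ranked 11965 (24.6), with replicate ranks of 14539 and 129491. Psmd9, Psmd10, Psmg3 and Psmg4 had no promoter peak in the optimal list.

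Of the 6 genes for activators and the inhibitor, Psme2, a subunit of the interferon-induced cap, ranked 3386 (48.4), with replicate ranks of 9713 and 1020, and Psme3, the nuclear cap, ranked 13670 (21.2), with 22615 and 20231. The Psme2 summit lay at -375, nearer to the TSS of its divergent neighbour Rnf31, a ubiquitin ligase gene. Psme1, the partner of Psme2 in the cap, had no peak in the optimal list and a leading call in replicate 2 only (rank 10793), and Psme4, an alternative cap, one in replicate 1 only (rank 11152). Psmf1, the inhibitor gene, had neither. Psmc3ip, which has the symbol only, had the weakest promoter peak of the 27, at rank 16079 (11.8).

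**Figure D3:**
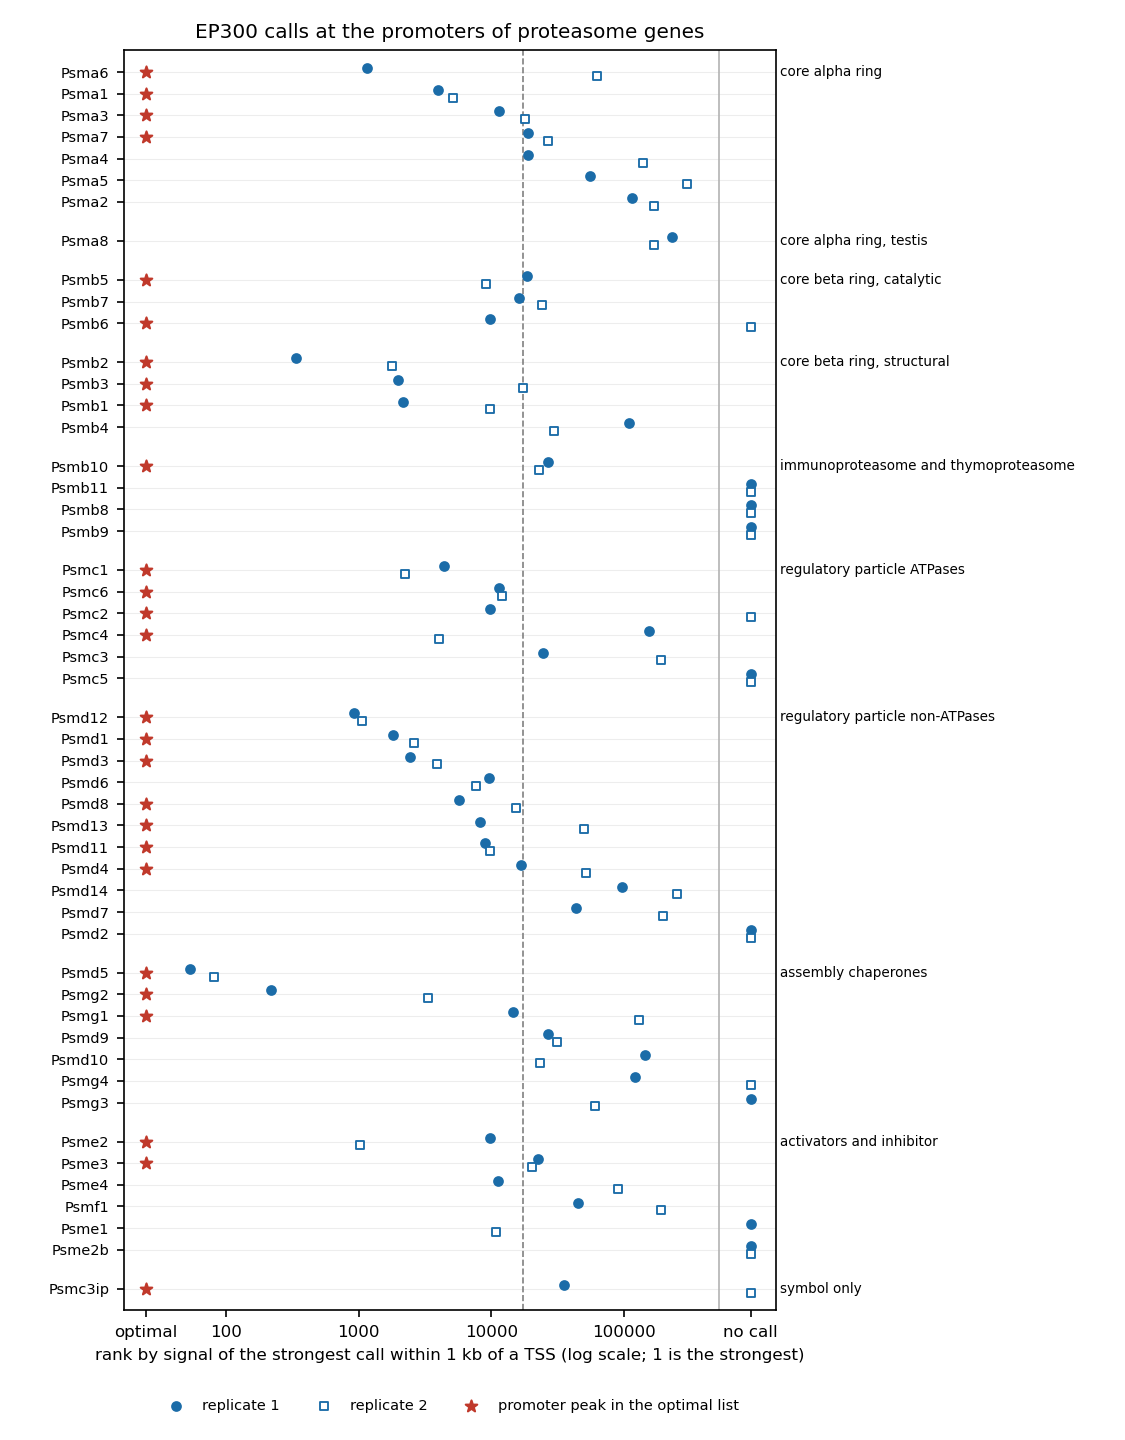
Rank by the authors' signal of the strongest call within 1 kb of a TSS of each of the 50 genes in replicate 1 (filled circles) and replicate 2 (open squares), on a log scale with strong calls to the left, grouped by role; red stars mark the 27 genes with a promoter peak in the optimal list and the dashed line the limit of 17372 leading calls. Psmd5 lies farthest left in both replicates, and the circle and square at "no call" for Psmb8, Psmb9, Psmb11, Psmc5, Psmd2 and Psme2b stand at the right edge.

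The replicates ordered the promoters similarly but far from identically. Of the 27 genes with an optimal promoter peak, 14 had leading calls in both replicates, 7 in replicate 1 only, 2 in replicate 2 only and 4 in neither (Psma7, Psmb10, Psmc3ip and Psme3). Over the 38 genes with a call in both full replicate lists, Spearman's rho of the 2 ranks was 0.67 and Pearson's r of their log10 values 0.70, where rho was 0.61 over 9223 genes with a call in both. These correlations run across genes of the same 2 libraries, which are not independent, and have no p-value. Per the file headers, replicate 1 was called against 2 control files and replicate 2 against 1, and the part of this in the differences between the replicates was not tested.

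Among the 23 genes without a promoter peak in the optimal list, 15 (65.2%) had a call within 1 kb in the pooled list of 300000, against 43.3% of all genes without an optimal promoter peak. Their pooled ranks ran from 7608 to 129176 with a median of 33713.0, and the median over all such genes was 51925.5. Within the first 17372 calls of at least 1 replicate were 4 of the 23, namely Psmb7, Psmd6, Psme1 and Psme4. Of the 50 genes, 6 (12.0%) had no call within 1 kb in the pooled and both replicate lists, against 32.5% of all genes.

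Farther than 1 kb from a GENCODE TSS, 9 peaks were assigned to proteasome genes, 5 of them beyond 10 kb. Nearest-gene assignment says nothing of which gene such a peak acts on. For these peaks, a replicate rank is that of a call whose summit lay within 100 bp of the optimal summit. The strongest lay 35853 bp downstream of the Psmb1 TSS, between genes at chr17:15462197-15462692, with a signal of 51.2 (rank 2948) and replicate ranks of 3385 and 3730, above the 43.3 of the Psmb1 promoter peak itself. A peak upstream of Psma3 (position -5568, signal 48.4, rank 3388) likewise had a higher signal than the Psma3 promoter peak and replicate ranks of 4043 and 4469. The Psme4 peak (37.4, position -50719) ranked 4079 in replicate 1 and had no replicate 2 summit within 100 bp. Psmc2 had a peak 1431 bp into the gene, in a coding exon (32.3), with replicate ranks of 7852 and 14651. This peak, chr5:21786466-21786961, covers bases -250 to -98 (chr5:21786497-21786649) of a second RefSeq start of Psmc2. By that start it would count as a promoter peak. Psmb7 and Psmd14 each had 1 distal peak (26.4 and 21.6, at -14524 and -48583) and no promoter peak in the optimal list. Psmg4 had 3 distal peaks, with signals of 27.2, 23.7 and 8.69, the first inside an intron of Slc22a23.

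Proteasome genes often have a close neighbour. A TSS of another protein-coding gene lay within 1 kb for 12 of the 50 (24.0%), against 12.9% of all genes, and in 11 of the 12 pairs the genes lay on opposite strands, as with Psmb1 and Tbp, Psmd13 and Sirt3, and Psmb9 and Tap1. Among all genes such a neighbour went with more promoter peaks, 44.5% with one and 17.9% without. Among the proteasome genes it did not: 6 of the 12 had a promoter peak, and 21 of the 38 without a neighbour (55.3%) did. The 12 neighbours had a promoter peak where the proteasome gene had one and lacked one where it did not, as 1 peak can count for both genes of a pair.

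Consensus motifs of 13 kinds were searched on both strands in the RefSeq windows of the 42 proteasome genes that have one. Psma8, Psmb1, Psmb2, Psmb7, Psmc3, Psmd3, Psmd7 and Psmg2 were not among them. Each motif was searched as a fixed string: CCGGAAG for ETS factors, GGGCGGG for SP and KLF factors, TGACNNNGC for the core of the antioxidant response element, and AGCCAAT for NF-Y. For YY1 it was AANATGGCG, and for nuclear respiratory factor (NRF1) it was CGCATGCG. The E-boxes were of 2 kinds, CACGTG for factors of the MYC and USF families, which most cells have, and a second kind known from muscle genes, CAGCTG. The TATA box was searched as TATAAA, while cardiac GATA factors were represented by AGATAAG and the cyclic AMP response element (CRE) by TGACGTCA, and ZNF143 and the heat shock element by longer consensus strings. A match is a string of letters and not a bound site. In the printed stretches no match of one string overlaps a match of another.
The ETS string stood out from the others: 15 of the 42 (35.7%) had it, against 13.4% of all genes, and 14 of 41 (34.1%) without Psmc3ip. Among the 29 proteasome genes with a CpG-rich window, 13 (44.8%) had it in such a window, against 21.0% of all genes with one. It was present in 11 of the 23 genes with a promoter peak and in 4 of the 19 without. The same split over all genes is not given here, so whether the string goes with a promoter peak was not tested. In the 200 bp around the summit it was present at 7 of 23 proteasome promoter summits (30.4%) and at 860 of 5810 over all genes (14.8%). These 2 shares are not counted alike. The 23 are fewer than the 27 proteasome genes with a promoter peak, while the 5810 outnumber the 4660 such genes over all. The next 5 sequences show the string in 4 genes with an EP300 promoter peak and in Psmd2, which had no call. The optimal summits of Psmc6, Psmd11 and Psmg1 lie outside the printed stretches. That of Psme3 lies inside, but Psme3 had a leading call in neither replicate.
Psmc6, chr14:45329608-45329787, plus strand: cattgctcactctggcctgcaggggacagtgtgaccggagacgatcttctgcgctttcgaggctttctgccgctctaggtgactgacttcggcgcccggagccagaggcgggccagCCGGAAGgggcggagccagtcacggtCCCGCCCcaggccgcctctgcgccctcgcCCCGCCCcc
Psmd11, chr11:80428435-80428614, plus strand: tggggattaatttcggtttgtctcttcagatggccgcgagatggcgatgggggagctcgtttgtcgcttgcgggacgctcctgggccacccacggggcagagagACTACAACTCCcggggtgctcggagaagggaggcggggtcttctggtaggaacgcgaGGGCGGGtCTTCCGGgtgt
Psme3, chr11:101316033-101316212, plus strand: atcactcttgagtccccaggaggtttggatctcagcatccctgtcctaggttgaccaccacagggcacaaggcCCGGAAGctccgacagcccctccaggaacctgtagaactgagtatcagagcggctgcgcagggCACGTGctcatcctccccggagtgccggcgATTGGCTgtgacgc
Psmg1, chr16:95990961-95991140, minus strand: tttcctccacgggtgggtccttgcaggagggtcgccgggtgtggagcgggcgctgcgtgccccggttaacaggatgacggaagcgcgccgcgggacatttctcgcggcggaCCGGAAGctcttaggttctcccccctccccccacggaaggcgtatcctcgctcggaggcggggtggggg
Psmd2, chr16:20651472-20651651, plus strand: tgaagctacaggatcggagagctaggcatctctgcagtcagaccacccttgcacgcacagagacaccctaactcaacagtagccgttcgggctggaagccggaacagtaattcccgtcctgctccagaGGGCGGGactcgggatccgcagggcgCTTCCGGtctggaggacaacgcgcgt

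In these, the ETS string begins at -100 in Psmc6, -11 in Psmd11, -107 in Psme3, -69 in Psmg1 and -26 in Psmd2, so its position before the start varied and the promoter without a call carries it too. The GC-rich SP and KLF string was found in 17 of the 42 (40.5%), against 38.2% of all genes and 60.1% of genes with a CpG-rich window. Among the 29 proteasome genes with a CpG-rich window, 14 (48.3%) had it. NF-Y strings were in 6 (14.3%, against 10.6%) and YY1 strings in 4 (9.52%, against 3.82%). No proteasome window held the CRE string or the heat shock consensus, which 2.64% and 0.575% of all genes had.
The antioxidant response element core is the string through which the factors encoded by Nfe2l1 and Nfe2l2 are known to induce proteasome genes when the protease is inhibited. It was found in 6 of the 42 (14.3%), against 15.0% of all genes: Psmb5, Psmb6, Psmc6, Psmd12, Psmd9 and Psme4. Of these 6, 4 had an EP300 promoter peak, as did 23 of all 42. In the 200 bp around the summit the string was present at 1 of 23 proteasome promoter summits (4.35%) and at 563 of 5810 over all genes (9.69%). As for the ETS string, these 2 shares are not counted alike. The pair is shown that encodes cutting subunits of the core, and in both the optimal summit lies outside the printed stretch.
Psmb5, chr14:54618023-54618202, minus strand: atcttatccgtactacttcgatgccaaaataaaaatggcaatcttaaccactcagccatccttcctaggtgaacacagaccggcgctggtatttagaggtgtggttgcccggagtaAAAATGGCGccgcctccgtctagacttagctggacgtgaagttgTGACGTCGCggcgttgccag
Psmb6, chr11:70525177-70525356, plus strand: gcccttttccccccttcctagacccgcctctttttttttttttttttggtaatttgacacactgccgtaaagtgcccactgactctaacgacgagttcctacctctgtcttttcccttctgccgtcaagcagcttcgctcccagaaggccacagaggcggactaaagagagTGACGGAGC

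**Figure D4:**
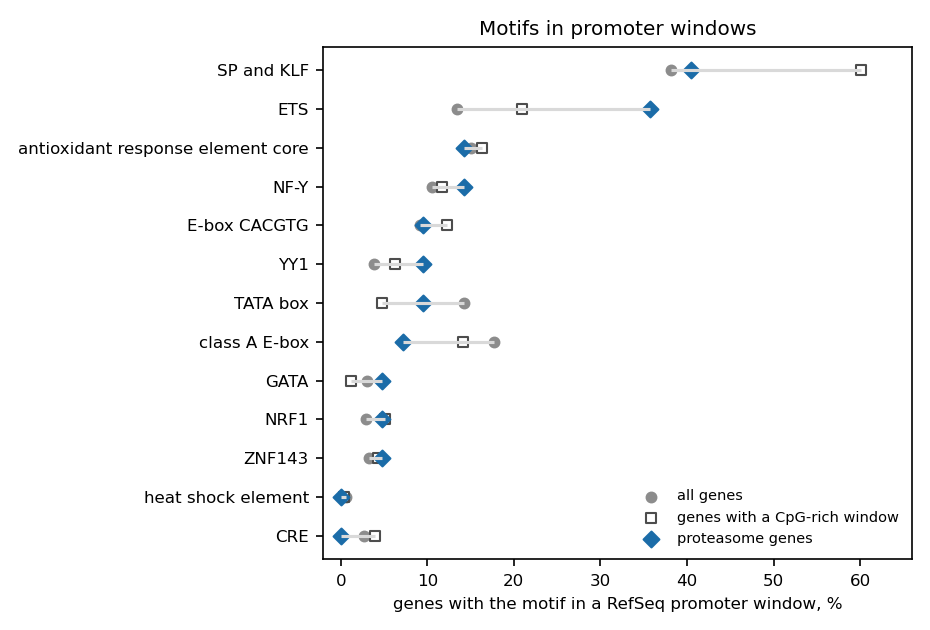
Percentage of genes with each of 13 consensus strings in a RefSeq promoter window, for 42 proteasome genes (blue diamonds), genes with a CpG-rich window (open squares) and all 16515 genes with a window (grey circles). The ETS string has the widest gap above both backgrounds, 35.7% of all proteasome windows against 21.0% and 13.4%.

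Genes that serve the proteasome without carrying its symbol prefix were listed separately: 31 genes for ubiquitin, its activating enzyme, receptors, shuttles, a core assembly factor, transcription factors of the proteasome genes and muscle ubiquitin ligases. Promoter peaks were found at 13 of the 31 (41.9%), against the 21.3% of all genes. Pomp, the maturation factor of the core, had the strongest, at rank 433 (96.4), with replicate ranks of 450 and 603. Of the other genes listed with it for assembly and regulation, Zfand5 had a signal of 54.0, Txnl1 one of 32.0 and Akirin2 one of 28.4. Ecpas and Fbxo7 had no promoter peak in the optimal list. Among the genes listed with the shuttles, Ufd1 had a signal of 39.4 and Ubqln4 one of 29.8. Trim63, the muscle ubiquitin ligase known as MuRF1, had a signal of 68.3 and Fbxo32, known as atrogin-1, one of 34.4. Ubiquitin genes Rps27a and Ubb had signals of 60.5 and 55.5, Adrm1, a ubiquitin receptor of the regulatory particle, 54.1, and Uba1, the activating enzyme, 34.4. Nfe2l1 had a weak promoter peak (23.1) and 4 assigned peaks, the strongest of 60.7. Nfe2l2 had 1 assigned peak (35.8) and no promoter peak in the optimal list.

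Another pair of large families whose promoters are active in most cells gave a measure of how particular these shares are. Cytosolic ribosomal protein genes had promoter peaks in 59 of 88 cases (67.0%), with a median signal of 54.6, and mitochondrial ribosomal protein genes in 45 of 78 (57.7%), with a median of 39.9. Leading calls in both replicates were found at 54.5% and 41.0% of them, against 30.0% of the proteasome genes. The proteasome share of 54.0% was therefore the lowest of the 3 families, its median signal in the optimal list, 30.7, was the lowest as well, and the share of promoters with an EP300 peak was not particular to the proteasome.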

How the data were processed

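EP300 ChIP-seq of newborn mouse heart tissue, in 1 group of 2 replicates, was analysed from the 5 peak lists that the authors deposited on mm10. Per the file headers, replicate 1 and the pooled reads were called against 2 control files and replicate 2 against 1, and both IDR lists derive from these. Which program called the peaks, and at which IDR cutoff, is not given in the sources used here. The deposited columns hold a signal value, a −log10 q-value, a score and the offset of the summit from the start of the peak. The signal formula is not given, so a signal was compared with others of the same list only. Read depth is unknown, and no counting interval can be given.

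Summits were assigned to the nearest protein-coding TSS within 100 kb (GENCODE M21) or to every TSS within 1 kb. The code recovered 200 of 200 peaks planted in simulated data. Promoter windows came from RefSeq (GRCm38.p6), of which 45 of 45 proteasome windows equal the genome at their coordinates, and 42 of the 50 genes matched by symbol. Python 3.11.15, pandas 2.3.3, numpy 2.4.6, SciPy 1.17.1 and matplotlib 3.10.9 were used. With 1 group no test was run, and shares of all genes were given as the background of the main counts, but not for each role, for which the 21.3% of all genes with a promoter peak serves. Named genes were the proteasome genes themselves and the listed pathway genes, with the strongest promoter peaks first. The members and lists were chosen with earlier results of these data known, and the palindrome was searched after the sequence was seen. Sequence from chromosome 18 was not printed.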

Additional observations from a re-analysis of the deposited data

How the results depend on the processing

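Of 38 alternatives, 30 stayed close to the reported value, which for a count means within 1.5 times and for the median percentile within the SD between replicates, 9.56. The number of proteasome genes with an assigned peak, 29, was 19 with the conservative list and 16 with peaks of −log10 q of at least 2. With that q-value limit, the peaks assigned fell from 37 to 20 and the genes with a promoter peak from 27 to 16 (32.0%, against 15.5% of all genes). Using only 1 replicate's leading calls, the genes with an assigned peak were 23 without replicate 1 and 24 without replicate 2. The assigned peaks were then 28 and 36. The genes with a promoter peak were 18 (36.0%, against 20.3% of all genes) and 24 (48.0%, against 24.9%). For assigned peaks, the shares of all genes under the alternatives are not given here. Those changes therefore cannot be told apart from changes in the whole list. The median percentile of the promoter peaks, 50.2, was the least stable value: 74.5 with the conservative list, 67.8 with the q-value limit, 73.7 without replicate 1 and 60.1 without replicate 2. Its order against all genes changed with it: all genes had 63.6 in the optimal list, but 64.4, 55.6, 60.9 and 59.8 under these 4 alternatives. The q-value limit and the conservative list keep fewer peaks by construction. A promoter distance of 500 bp gave 26 genes with a promoter peak (52.0%, against 19.7% of all genes) and 2 kb gave 27 (54.0%, against 22.7%). The distances for the ribosomal families and the pooled calls were varied after seeing the data. Peaks standing within 1 width of 496 bp of each other may be 1 site, and joining them left 31 assigned sites. No paired analysis was possible because there was only 1 group. Unknown depth limits what a missing call can show.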
